A study of Arabidopsis thaliana with 6 samples.

Results

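The indolic glucosinolate genes described here are 8 Arabidopsis thaliana loci taken by their identifiers from the count files: the regulators MYB34 (AT5G60890) and MYB51 (AT1G18570), the core enzymes CYP79B2 (AT4G39950), CYP79B3 (AT2G22330), CYP83B1 (AT4G31500) and SOT16 (AT1G74100), and the side-chain enzymes CYP81F2 (AT5G57220) and IGMT5 (AT1G76790). They are 8 of the 27629 genes in the files, and all 8 were among the 18642 genes with enough counts to be tested. RNA was taken from whole flower buds whose anthers were at stages 6 to 9, all of the Columbia ecotype (Col in the labels, Col-0 in the paper), and 3 libraries of each genotype were sequenced. The 3 transgenic libraries came from BnA9::BnMAGL8.1 plants, in which BnaC.MAGL8.a, a monoacylglycerol lipase gene of rapeseed, is driven by the BnA9 promoter in the tapetum, the layer that feeds the pollen. The 3 wild type (WT) libraries carry no transgene. The paper calls the replicates biological, but the number of transgenic lines and of plants in each replicate and the hour of sampling were not given in the sources used here, so p-values measure the spread between these 6 libraries. In such bulk samples, fewer cells of a type and less RNA in each cell cannot be told apart.

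Glucosinolates are sulfur-rich thioglucosides of crucifers that are stored intact and are split by myrosinases when tissue is damaged. The indolic class is made from tryptophan: CYP79B2 and CYP79B3 turn it into indole-3-acetaldoxime, CYP83B1 oxidizes the aldoxime, a glutathione conjugate is trimmed and cleaved to a thiohydroximate, and this is glucosylated by UGT74B1 and sulfated by sulfotransferases such as SOT16. MYB34, MYB51 and MYB122 are R2R3-MYB activators of these steps, which act together with the jasmonate-responsive factors MYC2, MYC3 and MYC4, and enzymes of the CYP81F and IGMT families then decorate the indole ring.

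The 8 genes lie on 4 of the 5 chromosomes of the TAIR10.1 assembly. MYB34 is at chr5:24494291-24496371, MYB51 at chr1:6389399-6391386, CYP79B2 at chr4:18525042-18527602, CYP79B3 at chr2:9488413-9491404 and CYP81F2 at chr5:23187840-23189902, all on the plus strand. CYP83B1 at chr4:15273410-15275404, SOT16 at chr1:27864345-27865694 and IGMT5 at chr1:28822186-28823727 are on the minus strand. SOT16 has a single exon and stands 151 bases from its relative SOT18, and CYP79B2 stands 3436 bases from APK2, an adenosine phosphosulfate kinase that makes the sulfate donor used by the sulfotransferases, with no annotated protein-coding gene between.

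CYP79B2 and CYP79B3 are the closest relatives among the 8, and their upstream sequences are shown because they carry a common block. Over 1695 aligned coding bases, 80.6% were identical, and the longest identical run, in lower case here, was 32 bases long and lay at coding positions 523 to 554 of CYP79B2 and 478 to 509 of CYP79B3. In the 250 bases before the annotated gene start, the capitals mark a block of 49 bases, of which 45 were identical between the 2 genes. The block began 104 bases before the start of CYP79B2 and 178 bases before the start of CYP79B3. Its longest identical run was 22 bases and occurred in 2 of the 27418 gene upstream windows of this length (0.00729%), those of CYP79B2 and CYP79B3.
CYP79B2 and CYP79B3 shared coding run: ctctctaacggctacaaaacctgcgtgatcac
CYP79B2 upstream, chr4:18524792-18525041, plus strand: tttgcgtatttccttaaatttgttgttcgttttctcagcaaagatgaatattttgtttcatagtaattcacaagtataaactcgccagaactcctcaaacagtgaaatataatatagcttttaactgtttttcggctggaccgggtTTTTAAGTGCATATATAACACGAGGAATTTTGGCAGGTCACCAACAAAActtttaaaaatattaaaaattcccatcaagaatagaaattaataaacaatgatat
CYP79B3 upstream, chr2:9488163-9488412, plus strand: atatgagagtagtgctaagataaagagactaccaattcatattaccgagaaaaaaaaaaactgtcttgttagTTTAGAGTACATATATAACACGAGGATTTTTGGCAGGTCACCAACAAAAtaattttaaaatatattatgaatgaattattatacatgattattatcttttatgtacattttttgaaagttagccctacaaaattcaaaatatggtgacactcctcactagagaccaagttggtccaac
Identical run within the block: TTTTGGCAGGTCACCAACAAAA

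MYB51 and CYP81F2 are shown because they were the 2 lowest genes of the set and because only their windows, of the 8, held the letters TTGAC, the core of the W-box that WRKY factors bind. Capitals mark TTGAC on either strand (read as GTCAA on the opposite strand). Each window held 2 copies, beginning 236 and 186 bases upstream of MYB51 and 193 and 108 bases upstream of CYP81F2. Of all 27418 windows of this length, 44.9% held TTGAC.
MYB51 upstream, chr1:6389149-6389398, plus strand: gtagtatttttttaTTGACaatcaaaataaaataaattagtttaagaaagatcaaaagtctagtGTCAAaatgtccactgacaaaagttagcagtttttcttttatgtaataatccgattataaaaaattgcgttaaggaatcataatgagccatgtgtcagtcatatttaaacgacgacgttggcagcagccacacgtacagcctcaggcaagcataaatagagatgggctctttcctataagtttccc
CYP81F2 upstream, chr5:23187590-23187839, plus strand: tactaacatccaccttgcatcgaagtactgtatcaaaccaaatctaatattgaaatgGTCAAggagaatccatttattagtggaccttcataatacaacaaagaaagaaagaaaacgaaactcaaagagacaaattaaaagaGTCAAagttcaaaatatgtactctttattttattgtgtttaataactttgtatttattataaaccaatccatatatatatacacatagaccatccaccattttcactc
The MYB core TAACTG occurred once each in the windows of CYP79B2 and IGMT5 (8.12% of all windows held it), and ACCNACC, an AC element, once in that of SOT16 (6.1%). The G-box CACGTG (6.48%) and the evening element AAATATCT (4.79%) occurred in none of the 8. Both strands were searched for each motif, and the sequences were read from the RefSeq TAIR10.1 genome.

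The libraries held between 13519945 and 14729927 counts. The transgene had 5552, 853 and 9594 counts in transgenic replicates 1, 2 and 3, against 0 in each WT library. The floral identity genes AP3, PI, AG and SEP3 were present in every library at 39.8 to 270 CPM (counts scaled to a common library size by TMM, the trimmed mean of M-values), and so were the tapetum markers A9, at 214 to 662 CPM, and AMS, at 38.5 to 92.6 CPM. Of the 11 tapetum markers listed, 9 were tested. DYT1 had no count in any library, TDF1 had at most 4 counts, and MS188 fell to 0.44 CPM in transgenic replicate 2. Across all genes, edgeR's quasi-likelihood test called 3 of 18642 at an adjusted p under 0.05 (0.0161%). The libraries differed in the state of the circadian clock: a score, the mean log2 level of the morning genes LHY, CCA1 and PRR9 minus that of the evening genes TOC1, GI, ELF4 and PRR5, was 0.24, 1.00 and -2.54 in transgenic replicates 1, 2 and 3 and -0.62, -3.30 and 5.22 in WT replicates 1, 2 and 3. Transgenic replicates 1 and 2 and WT replicate 3 thus lay on the morning side of 0, and the other 3 libraries on the evening side, with transgenic replicate 1 and WT replicate 1 near 0.

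None of the 8 genes passed the test between transgenic and WT buds. The point estimates of 6 genes were above 0 and those of 2 below it, with a median log2 fold change of 0.34, against -0.01 over all genes tested, 47.9% of which had an estimate above 0. The unadjusted p was under 0.05 for 3 of the 8, against 6.84% of all genes tested: IGMT5 and CYP79B2 with higher and CYP81F2 with lower levels in transgenic buds. Of all genes, 2.57% passed that mark with higher and 4.26% with lower levels. The count of 3 moved to 1 without transgenic replicate 1, to 1 without WT replicate 2 and to 5 without WT replicate 3. The share of all genes under that mark was not counted with a library left out, so these moved counts have no background beside them.

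**Figure D1:**
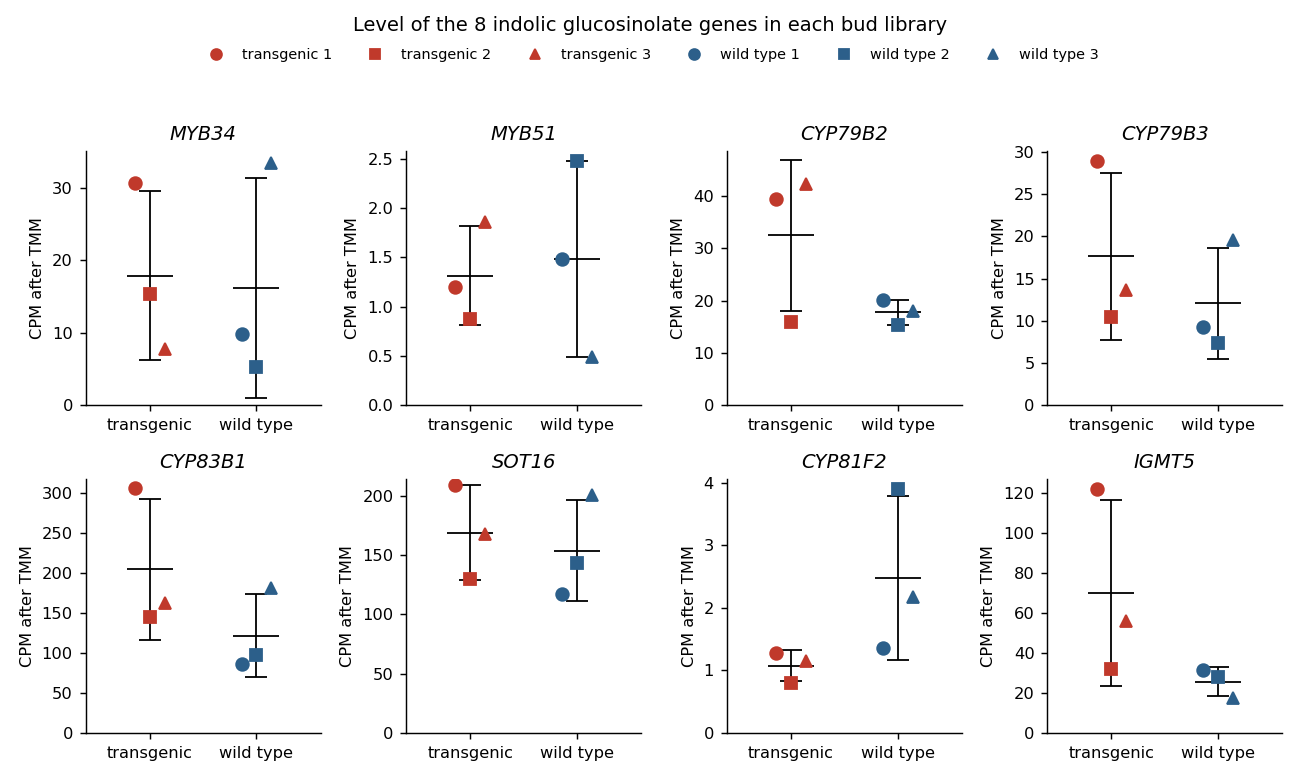
CPM after TMM scaling of each of the 8 genes (vertical axis, starting at 0, a different range in each panel) in the 3 transgenic and the 3 WT libraries, with the mean as a horizontal line and the standard deviation as error bars. The genotypes overlap for 6 genes, the transgenic points lie above all WT points for IGMT5 (31.9 CPM and up, against at most 31.4 CPM) and below them for CYP81F2 (at most 1.28 CPM, against 1.35 CPM and up).

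The regulators were similar in mean level between the genotypes and varied widely among the libraries. MYB34, the activator whose mutants alter both tryptophan and indolic glucosinolate genes, stood at 30.6, 15.4 and 7.73 CPM in transgenic replicates 1, 2 and 3, against 9.86, 5.26 and 33.4 CPM in WT replicates 1, 2 and 3. Transgenic replicate 1 and WT replicate 3 were both high, so the genotypes overlapped throughout. The means were 17.9 ± 11.6 CPM in transgenic and 16.2 ± 15.1 CPM in WT buds (SD, n = 3 each), and the log2 fold change was 0.14 (standard error 0.66, 95% interval -1.36 to 1.63, adjusted p = 0.982 by edgeR with Benjamini-Hochberg adjustment). The interval spans more than a doubling in either direction, so a change of that size was not detectable with these libraries.

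MYB51, the activator best known for indolic glucosinolate synthesis in shoots and under attack, was low, with 15, 12 and 26 counts in transgenic replicates 1, 2 and 3, against 23, 33 and 7 counts in WT replicates 1, 2 and 3. These corresponded to 1.20, 0.87 and 1.86 CPM in transgenic buds and 1.48, 2.48 and 0.49 CPM in WT buds. The WT libraries enclosed all transgenic ones, with WT replicate 2 highest and WT replicate 3 lowest. The log2 fold change was -0.15 (standard error 0.58, 95% interval -1.49 to 1.18, adjusted p = 0.975 by edgeR). The third activator, MYB122, had no count in any library, and 3 counts, the limit that a count of 0 allows, correspond to at most 0.24 CPM per library. Most low counts were even, and if mates were counted separately, the fragments behind a low count are fewer than the count and this limit is higher.

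MYB34 and MYB51 ran in opposite directions along the clock score. MYB34 lay between 15.4 and 33.4 CPM in the 3 libraries on the morning side, against 5.26 to 9.86 CPM in the 3 on the evening side, with no overlap. MYB51 lay between 0.49 and 1.20 CPM on the morning side, against 1.48 to 2.48 CPM on the evening side, again with no overlap. Of all genes tested, 8.33% had every morning-side library above the evening-side ones, and 9.04% every one below. The other 6 genes overlapped between the sides. Within a side the genotype difference of MYB34 was -0.54 on the log2 scale on the morning side (transgenic replicates 1 and 2 over WT replicate 3) and 0.03 on the evening side (transgenic replicate 3 over WT replicates 1 and 2), and that of MYB51 was 1.09 and -0.09, with too few libraries on a side for a test. The morning side was uneven in score, at 0.24 and 1.00 in transgenic replicates 1 and 2 against 5.22 in WT replicate 3. With the clock score as a covariate over all 6 libraries, the log2 fold change of MYB34 was 0.77 (unadjusted p = 0.0423, adjusted p = 0.464 by edgeR). That of MYB51 was -0.19 (adjusted p = 0.917 by edgeR).

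**Figure D2:**
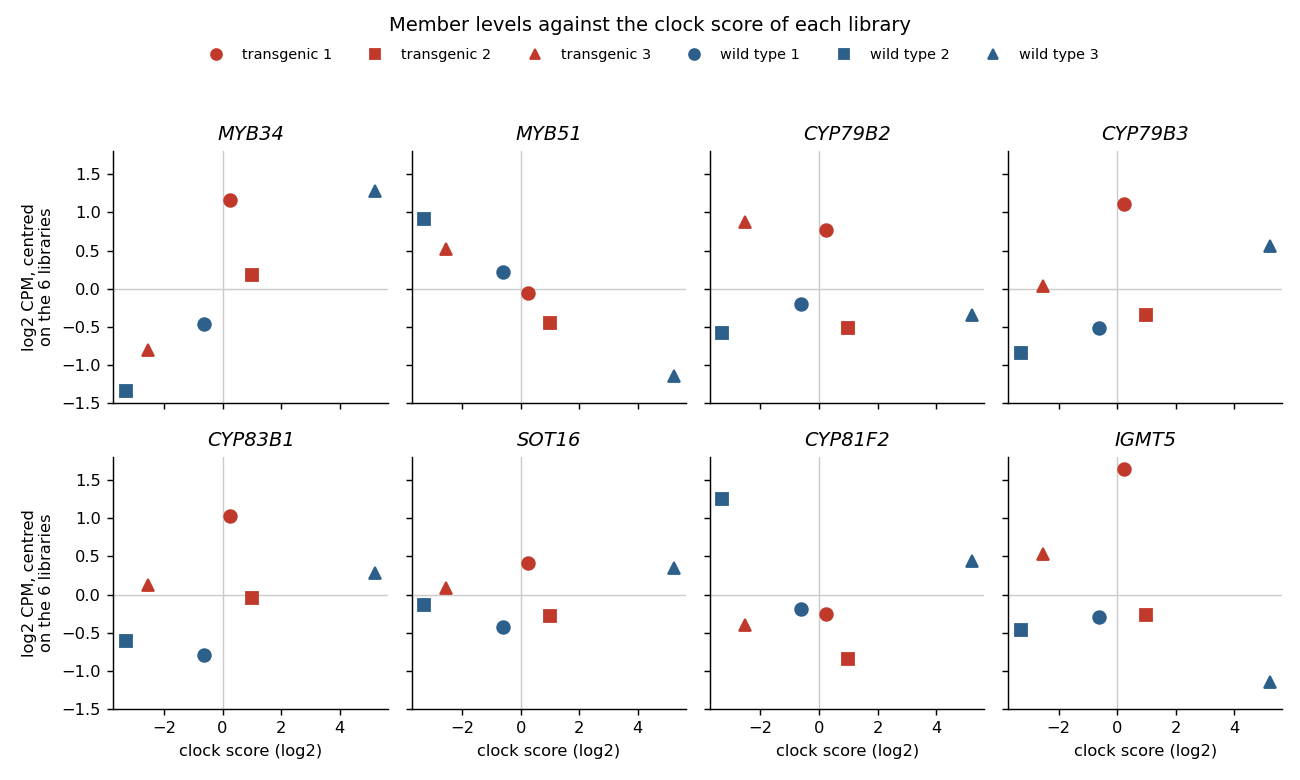
Log2 CPM of each gene, centred on its mean over the 6 libraries (vertical axis), against the clock score of the library (horizontal axis, log2, higher on the morning side), with 1 point per library. MYB34 is lowest at the score of -3.30 and highest at 5.22, MYB51 is highest at -3.30 and lowest at 5.22, and IGMT5 is highest in transgenic replicate 1 (score 0.24) and lowest in WT replicate 3 (score 5.22).

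Genes induced by wounding and touch also differed among the libraries. Over 13 such genes (WRKY33, WRKY40, WRKY53, TCH2, CBF1, DDF1 and others), the mean centred log2 level was -0.42, -1.73 and 0.65 in transgenic replicates 1, 2 and 3 and 0.99, 0.79 and -0.29 in WT replicates 1, 2 and 3. The estimates of 12 of the 13 were below 0, 3 of them with an unadjusted p under 0.05. Over all genes tested, 9714 of 18642 had estimates below 0, and 4.26% had an unadjusted p under 0.05 with lower levels. The summed level of the 13 genes lay between 253 and 1175 CPM in transgenic and between 500.4 and 1206 CPM in WT libraries. The 3 libraries with a list mean above 0 (transgenic replicate 3, WT replicates 1 and 2) were those in which MYB51 was high and MYB34 low. The part of the clock state and of wounding or touch in the levels of MYB34 and MYB51 was not tested.

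The core enzymes were all 4 estimated higher in transgenic buds, with log2 fold changes between 0.14 and 0.87, and none passed the test over all genes. CYP79B2 had 39.3, 16.0 and 42.3 CPM in transgenic replicates 1, 2 and 3, against 20.04, 15.3 and 18.0 CPM in WT replicates 1, 2 and 3. Transgenic replicates 1 and 3 exceeded every WT library, and transgenic replicate 2 lay within the WT range, which was narrow. The means were 32.5 ± 14.4 CPM in transgenic and 17.8 ± 2.37 CPM in WT buds (SD, n = 3 each), which is 0.87 on the log2 scale (standard error 0.33, 95% interval 0.12 to 1.61, unadjusted p = 0.0273, adjusted p = 0.720 by edgeR). Without transgenic replicate 2, the library with the least transgene, the log2 fold change was 1.20 (adjusted p = 0.570 by edgeR). It was 0.71 without transgenic replicate 1, 0.63 without transgenic replicate 3 and 0.77 without WT replicate 2, and in these 3 fits the unadjusted p by edgeR was 0.0949, 0.102 and 0.0895.

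Its paralog CYP79B3, which catalyzes the same step, had 28.9, 10.4 and 13.7 CPM in transgenic replicates 1, 2 and 3, against 9.28, 7.36 and 19.6 CPM in WT replicates 1, 2 and 3. Only transgenic replicate 1 exceeded all WT libraries, and WT replicate 3 was second highest. The log2 fold change was 0.54 (standard error 0.45, 95% interval -0.48 to 1.57, adjusted p = 0.823 by edgeR), and without transgenic replicate 1 it was -0.011. Per kb of exon, CYP79B2 was 1.43, 1.61 and 3.24 times as abundant as CYP79B3 in transgenic replicates 1, 2 and 3, against 2.26, 2.18 and 0.963 times in WT replicates 1, 2 and 3. The ratios of the genotypes overlapped, and the 2 extremes were transgenic replicate 3 on the evening side and WT replicate 3 on the morning side. The pair shares no stretch of 50 bases, so the counts of each are its own at that length.

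CYP83B1, whose loss diverts the aldoxime into excess auxin, had 306, 144 and 163 CPM in transgenic replicates 1, 2 and 3, against 86.0, 98.0 and 181 CPM in WT replicates 1, 2 and 3. Transgenic replicate 1 stood far above the rest, and WT replicate 3 exceeded the other transgenic libraries. The means were 204 ± 88.4 CPM in transgenic and 122 ± 51.8 CPM in WT buds (SD, n = 3 each), a difference of 0.75 on the log2 scale (standard error 0.35, 95% interval -0.04 to 1.54, unadjusted p = 0.0609, adjusted p = 0.722 by edgeR). The estimate was 0.33 without transgenic replicate 1 and 1.15 without WT replicate 3, with adjusted p-values of 0.948 and 0.307 by edgeR.

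SOT16, the sulfotransferase that finishes the core structure and prefers the indolic substrate, had the smallest spread of the 8 over the 6 libraries. It stood at 210, 130 and 168 CPM in transgenic replicates 1, 2 and 3, against 117, 144 and 201 CPM in WT replicates 1, 2 and 3. The genotypes interleaved, and the root mean square of its centred log2 levels was 0.31, against 0.596 or more for the other 7 genes. The log2 fold change was 0.14 (standard error 0.23, 95% interval -0.39 to 0.67, adjusted p = 0.924 by edgeR), the tightest interval of the set. Within the morning and the evening side of the clock score, the log2 difference of transgenic over WT libraries was 0.62 and 1.26 for CYP79B2, 0.0039 and 0.72 for CYP79B3, 0.31 and 0.82 for CYP83B1 and -0.24 and 0.36 for SOT16, so the 4 genes had the larger value on the evening side, where the single transgenic library was replicate 3.

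The 2 side-chain genes stood at the ends of the set, with the highest and the lowest estimates, and they were the 2 genes whose genotypes did not overlap. Over all genes tested, 5.57% had every transgenic library above every WT library and 6.62% had every one below. IGMT5, a methyltransferase that completes the N-methoxy form of indolic glucosinolate, had 122, 31.9 and 55.9 CPM in transgenic replicates 1, 2 and 3, against 31.4, 28.0 and 17.3 CPM in WT replicates 1, 2 and 3. Transgenic replicate 2 and WT replicate 1 were nearly equal, and most of the difference in means came from transgenic replicate 1. The means were 69.9 ± 46.6 CPM in transgenic and 25.6 ± 7.37 CPM in WT buds (SD, n = 3 each), a 2.73-fold higher level (log2 fold change 1.45, standard error 0.44, 95% interval 0.44 to 2.45, unadjusted p = 0.0101, adjusted p = 0.690 by edgeR). Without transgenic replicate 1 the estimate was 0.78 (adjusted p = 0.899 by edgeR). DESeq2, on all 6 libraries, gave an unadjusted p of 0.000389 and an adjusted p of 0.0823. IGMT5 overlaps 71 bases of AT1G76780 on the opposite strand (chr1:28822186-28822256), and the use of strand in counting is not given, but that gene had at most 4 counts in any library.

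CYP81F2, a monooxygenase that hydroxylates the indole ring and whose product serves in defence against fungi and aphids, had 16, 11 and 16 counts in transgenic replicates 1, 2 and 3, against 21, 52 and 31 counts in WT replicates 1, 2 and 3. These were 1.28, 0.80 and 1.14 CPM in transgenic buds and 1.35, 3.91 and 2.16 CPM in WT buds. Every transgenic library was below every WT library, though transgenic replicate 1 and WT replicate 1 differed by 5 counts before scaling. The means were 1.08 ± 0.25 CPM in transgenic and 2.47 ± 1.304 CPM in WT buds (SD, n = 3 each). The log2 fold change was -1.18 (standard error 0.50, 95% interval -2.32 to -0.04, unadjusted p = 0.0445, adjusted p = 0.722 by edgeR). Without WT replicate 2 it was -0.70 (adjusted p = 0.665 by edgeR). Within the morning and the evening side of the clock score the log2 difference was -1.05 and -1.20 for CYP81F2 and 2.15 and 0.91 for IGMT5, whose signs are fixed by the lack of overlap between the genotypes.

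Compared per kb of exon, the 8 genes spanned a wide range of levels in these buds. In transgenic libraries the mean levels were 125 ± 29.5 CPM per kb for SOT16 and 108 ± 46.5 for CYP83B1, followed by 51.0 ± 34.0 for IGMT5, 15.2 ± 6.75 for CYP79B2, 10.1 ± 6.56 for MYB34, 7.88 ± 4.41 for CYP79B3, 0.74 ± 0.28 for MYB51 and 0.61 ± 0.14 for CYP81F2 (SD, n = 3 each). In WT libraries they were 114 for SOT16, 64.1 for CYP83B1, 18.7 for IGMT5, 8.33 for CYP79B2, 9.11 for MYB34, 5.39 for CYP79B3, 0.83 for MYB51 and 1.40 for CYP81F2. In transgenic buds the highest was 205.9 times the lowest. In transgenic libraries the ranges of some neighbours in the order overlapped: SOT16 and CYP83B1, CYP83B1 and IGMT5, and MYB51 and CYP81F2. So did the ranges of CYP79B2, MYB34 and CYP79B3 among themselves. Compared within a library, CYP83B1 was above IGMT5 in every library, and CYP79B2 was above CYP79B3 in all but WT replicate 3. The other pairs of neighbours named here changed order between transgenic libraries. In WT libraries MYB34 stood before CYP79B2, and CYP81F2 before MYB51. CYP83B1 and SOT16 were above the entry enzymes CYP79B2 and CYP79B3 in every library.

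**Figure D3:**
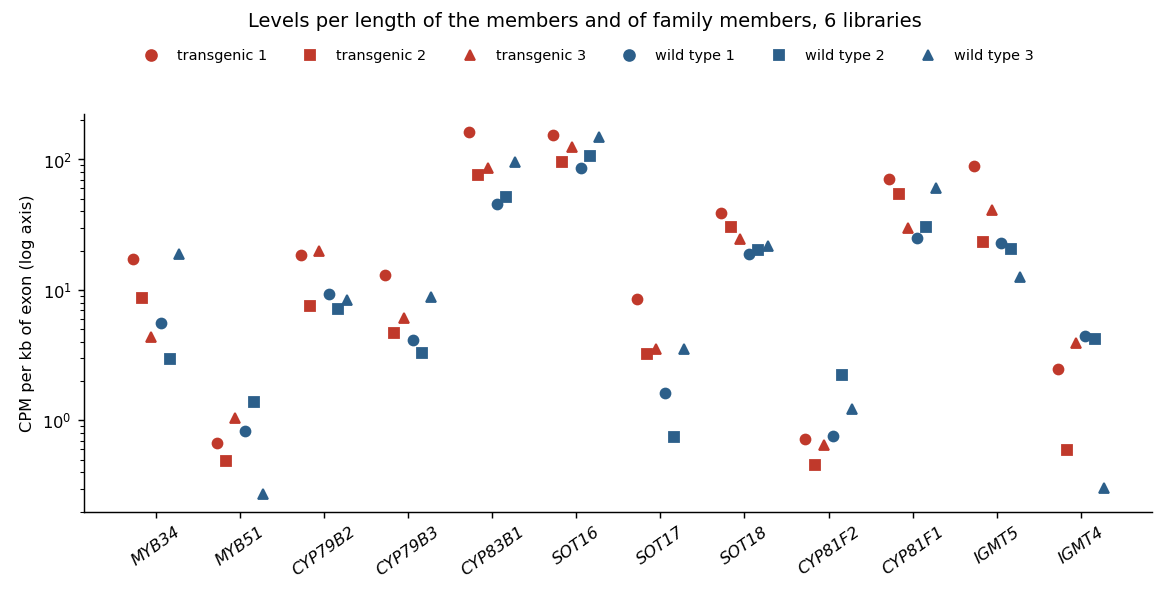
CPM per kb of exon on a log axis for the 8 genes and for their relatives SOT17, SOT18, CYP81F1 and IGMT4, in the 3 transgenic and 3 WT libraries (1 point each). Of the 8 genes, CYP83B1 and SOT16 have the highest means and MYB51 and CYP81F2 the lowest. SOT17 falls below CYP81F2 only in WT replicate 2 and IGMT4 only in WT replicate 3, and CYP81F1 stands well above CYP81F2 in every library.

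The relatives of the enzymes showed which family member prevailed. CYP81F1, which hydroxylates the same ring, averaged 91.1 ± 36.8 CPM in transgenic and 68.2 ± 33.7 CPM in WT buds (SD, n = 3 each). CYP81F3 had at most 21 counts in a library. CYP81F4 had 7 counts in WT replicate 1 and none in any other library, and neither gene was tested. IGMT5 made up 96.3%, 95.1% and 88.7% of the summed level per kb of IGMT1 to IGMT5 in transgenic replicates 1, 2 and 3, against 81.1%, 79.3% and 94.6% in WT replicates 1, 2 and 3. IGMT1 to IGMT4 share between 9.28% and 42.6% of their stretches of 50 bases with one another, so their separate counts are uncertain, but none is shared with IGMT5. SOT16 made up 76.7%, 74.2% and 81.7% of the summed level per kb of SOT16, SOT17 and SOT18 in transgenic replicates 1, 2 and 3, against 81.0%, 83.6% and 85.5% in WT replicates 1, 2 and 3. SOT17 and SOT18, which prefer aliphatic substrates, both had an unadjusted p under 0.05 with log2 fold changes of 1.34 and 0.62, and SOT18 did not overlap between the genotypes.

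Transgenic replicate 2 was the lowest transgenic library for 7 of the 8 genes, MYB34 being the exception, against 32.8% of all genes tested. Transgenic replicate 1 was the highest of the 6 libraries for 4 of the 8 (CYP79B3, CYP83B1, SOT16 and IGMT5), against 15.8% of all genes tested. Transgenic replicate 3 was the highest library for CYP79B2. The transgene stood at 445, 62.1 and 686 CPM in transgenic replicates 1, 2 and 3. The green tissue markers (12 genes of photosynthesis) had a mean centred log2 level of 0.51, 0.32 and -0.69 in transgenic replicates 1, 2 and 3 and -0.17, -0.27 and 0.30 in WT replicates 1, 2 and 3, and summed to between 36313 and 61523 CPM in transgenic and between 39241 and 48084 CPM in WT libraries. Estimates of 11 of the 12 were above 0, against 47.9% over all genes tested, and none of the 12 had an unadjusted p under 0.05. Genes of jasmonate synthesis and response were also highest in transgenic replicate 1, where the mean centred log2 level over 8 genes was 0.45, followed by 0.34 in WT replicate 3, and lay between -0.48 and -0.04 in the other 4 libraries. Estimates of 4 of these 8 were above 0, against 47.9% of all genes tested. Of the 4, VSP1 and LOX2 had an unadjusted p under 0.05, against 2.57% of all genes with higher levels. AOS, OPR3, JAZ1 and JAZ5 had estimates below 0. The summed level was 13212 to 18279 CPM in transgenic and 8603 to 11499 CPM in WT libraries. Most of each sum came from VSP1, VSP2 and LOX2, with VSP1 alone at 8259 to 9420 CPM in transgenic and 4563 to 6070 CPM in WT libraries. The part of the transgene level, of green tissue and of jasmonate in the levels of the 8 members was not tested.

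Among the 8, CYP79B3 and CYP83B1 had the most similar profiles over the 6 libraries, with a root mean square difference of 0.229 between their centred log2 levels. CYP83B1 ranked 11 among all tested genes by closeness to CYP79B3, and CYP79B3 ranked 29 by closeness to CYP83B1. CYP79B2 was farther from its paralog (0.553) and MYB34 and MYB51 were the farthest pair (1.59). The tested genes nearest in profile were PAP1 for MYB34 (0.174), AT3G12420 for MYB51 (0.124), MSRB9 for CYP79B2 (0.173), AT2G23680 for CYP79B3 (0.0947), AT1G52000 for CYP83B1 (0.121), AT5G03100 for SOT16 (0.0663), HA9 for CYP81F2 (0.239) and HIPP22 for IGMT5 (0.349). With 6 points a profile and 18642 genes to choose from, close profiles are a description of these libraries only.

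The other genes of the indolic pathway were mostly estimated higher as well, by small amounts. Of 49 such genes listed by role, 37 were tested, of which 28 had estimates above 0 and 9 below, with a median log2 fold change of 0.27, and none passed the adjusted test. Over all genes tested, 47.9% had estimates above 0. The unadjusted p was under 0.05 for 6 of the 37 with higher and 1 with lower levels, against 2.57% and 4.26% of all genes, and 5 had every transgenic library above the WT ones, against 5.57%. The 6 include SOT17 and SOT18, which prefer aliphatic substrates, and SOT18 is also among the 5. The list follows roles, such as tryptophan supply and transport, and is not confined to genes of indolic glucosinolates alone. Together with the 8 genes, 10 of 45 had an unadjusted p under 0.05, SOT17 and SOT18 among them. That count moved to 6 without transgenic replicate 1 and to 24 without WT replicate 3, the library at the morning extreme of the clock score. The share of all genes under that mark in those fits was not counted.

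By role, the supply of tryptophan had 9 of 11 genes with estimates above 0, against 47.9% of all genes tested. PAT1, a phosphoribosyltransferase of tryptophan synthesis, had 28.7, 26.7 and 27.1 CPM in transgenic replicates 1, 2 and 3, against 19.3, 15.8 and 21.2 CPM in WT replicates 1, 2 and 3 (log2 fold change 0.55, standard error 0.16, adjusted p = 0.687 by edgeR). Its highest transgenic library was 1.08 times the lowest, and all transgenic libraries lay above the WT ones. TSA1, the alpha subunit of tryptophan synthase, differed by 0.43 on the log2 scale (standard error 0.16), also without overlap.

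Of the 9 other core genes, 7 had estimates above 0, SOT17 and SOT18 among them, against 47.9% of all genes tested. GSTF9, a glutathione transferase, averaged 661 ± 152 CPM in transgenic and 421 ± 48.9 CPM in WT buds (SD, n = 3 each), with a log2 fold change of 0.65 and no overlap. GGP3, a gamma-glutamyl peptidase, was the one core gene with an unadjusted p under 0.05 and a lower level, at 23.1 ± 1.53 CPM in transgenic and 31.7 ± 5.90 CPM in WT buds (SD, n = 3 each). SUR1, the C-S lyase, and UGT74B1, the glucosyltransferase, had log2 fold changes of 0.44 and 0.51 with overlap. Of the sulfate donor enzymes, APK2, the neighbour of CYP79B2, had 0.69 (standard error 0.36) and APK1 0.14 (standard error 0.39).

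Of the regulators outside the set, OBP2, a DOF factor, had a log2 fold change of 0.35 and MYC4 0.31, both with overlap. Of the transporters, GTR2, which moves glucosinolates along with GTR1, had 52.2, 51.0 and 55.1 CPM in transgenic replicates 1, 2 and 3, against 35.3, 35.1 and 39.6 CPM in WT replicates 1, 2 and 3 (log2 fold change 0.53, standard error 0.13, unadjusted p = 0.00274, adjusted p = 0.594 by edgeR). This was the smallest unadjusted p among the indolic genes, and the groups were far apart for their spread. Of the breakdown genes, PEN2, an atypical myrosinase that acts on indolic glucosinolates, lay at -0.62 on the log2 scale (standard error 0.30) and PYK10, a beta-glucosidase of root endoplasmic reticulum bodies, 0.76 (standard error 0.48) at under 2 CPM. Of genes for other indole products, the camalexin genes CYP71A12, CYP71A13 and PAD3 had at most 26 counts in any library and were not tested. The nitrilase NIT1 lay at 0.56 on the log2 scale (standard error 0.29).

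**Figure D4:**
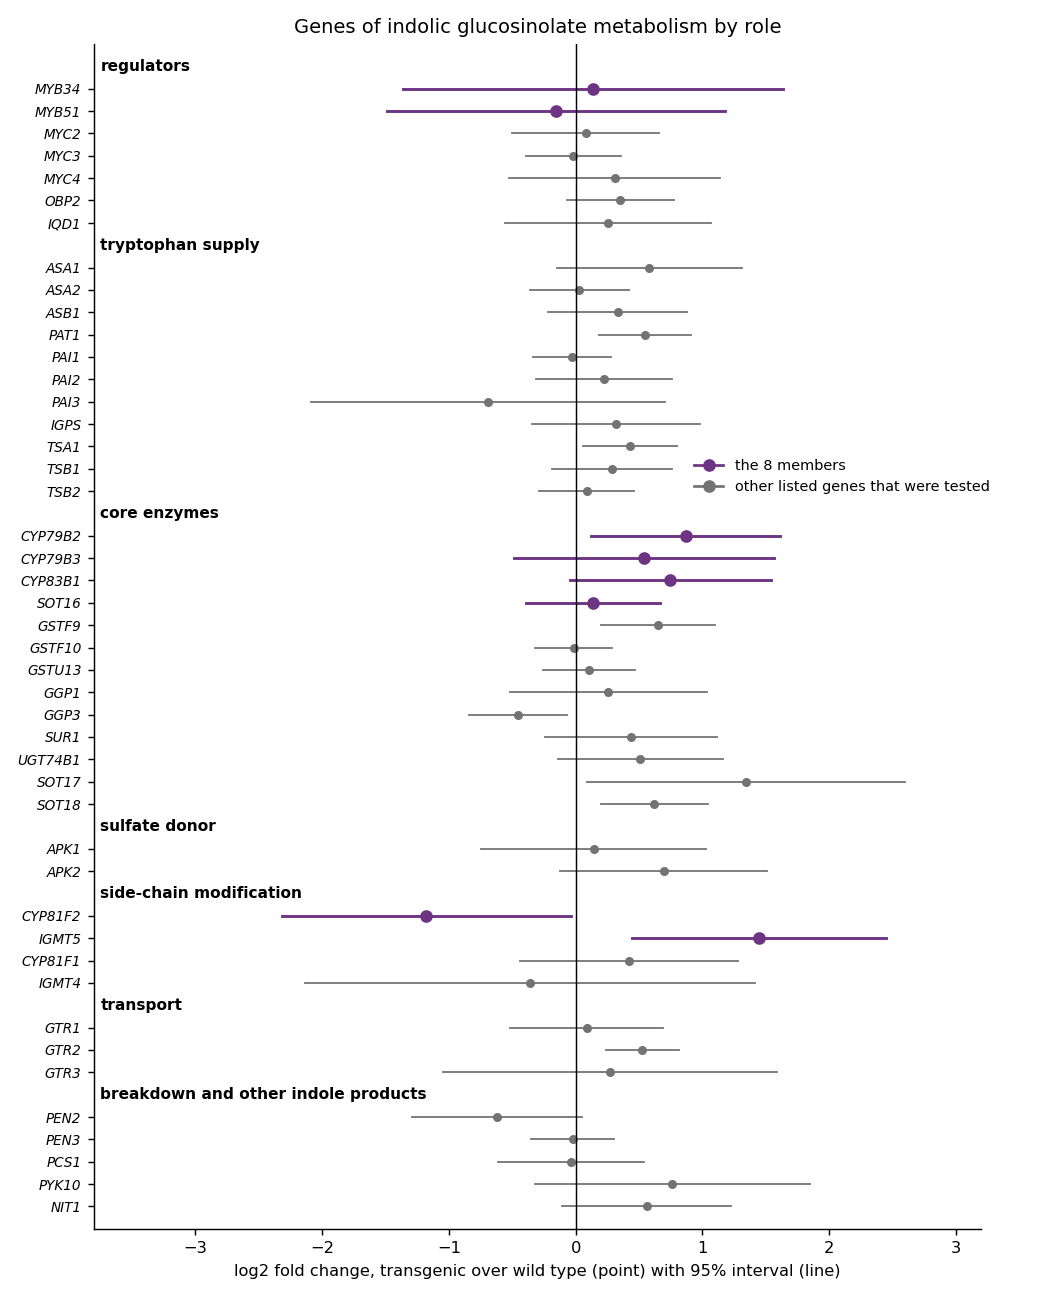
Log2 fold change of transgenic over WT buds (points) with 95% intervals (lines) for the 8 genes (purple, large) and the 37 other tested genes of indolic metabolism (grey), grouped by role. IGMT5 (1.45) is the highest and CYP81F2 (-1.18) the lowest, and the intervals of most genes include 0.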

How the data were processed

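RNA of young flower buds was measured in 3 transgenic and 3 WT libraries, and samples were grouped by the genotype in their labels. The deposited values are raw counts per gene, which the authors made with HISAT2 and featureCounts on TAIR10 with the BnaC.MAGL8.a coding sequence added. Versions, strand use, the handling of multiply mapped reads and whether mates were counted separately were not given in the sources used here. In each library 75.5% to 78.0% of the counts from 1 to 20 were even. Library totals lay between 13519945 and 14729927 counts. Replicates of a genotype differed by more than sampling noise, so each library counted as 1 sample.

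Genes were kept with edgeR's filter (minimum count 10, minimum total 15), scaled by TMM and compared with edgeR 4.0.16 quasi-likelihood tests in R 4.3.3, with Benjamini-Hochberg adjustment over 18642 genes and genotype as the only term. The threshold was an adjusted p of 0.05. Centred log2 levels used a prior count of 2. Alternatives were DESeq2 1.42.0, voom of limma 3.58.1, RLE size factors, other filters, a clock covariate, a replicate block, leaving out each library and edgeR's older quasi-likelihood method. Levels per kb used the exons of TAIR10.1, and coding sequences were compared on that build. Python 3.11.15 with matplotlib 3.10.9 was used for figures. Floors from counts cover counting error only. The intervals of the log2 fold changes come from the edgeR quasi-likelihood fit and also include the spread between the libraries of a genotype.

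The members and lists were chosen with earlier results of these data known. Genes named are the 8 members, list genes with an unadjusted p under 0.05 or up to 2 of a list with the smallest p, chromosomal neighbours of members, and the genes nearest in profile, of which the closest is given; list genes named beyond this rule were chosen after their values were seen.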

Additional observations from a re-analysis of the deposited data

How the results depend on the processing

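None of the 8 genes was called by edgeR or under any of the 14 alternatives, at 3 unadjusted p-values under 0.05 by edgeR, 4 by DESeq2 and 2 by voom. IGMT5 kept an unadjusted p under 0.05 in 14 of 14 alternatives (log2 fold change 0.78 to 1.80, adjusted p 0.0823 to 1) and CYP79B2 in 10 of 14 (0.63 to 1.20). CYP81F2 kept it in 7 of 14 (-1.49 to -0.70), and CYP83B1 had it in 7 of 14 (0.33 to 1.15). MYB51 could not be fitted with at least 10 counts in every library.

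The count of genes called was 3 by edgeR, 62 by DESeq2, 0 by voom, 0 with a replicate block and 0 to 5 with 1 library left out. With the clock score as a covariate, 5 of the 8 genes (MYB34, CYP79B2, CYP83B1, CYP81F2 and IGMT5) had an unadjusted p under 0.05, and with 1 library left out 1 to 5. Over all 45 tested indolic genes, 10 by edgeR became 16 by voom, 22 with the clock covariate and 6 to 24 with 1 library left out. The replicate numbers did not pair the libraries, since same-numbered libraries had correlations of -0.0756, -0.0983 and -0.351 between their deviations, and the replicate block left 2 of the 8 genes and 8 of the 45 with an unadjusted p under 0.05. The share of all genes under that mark (6.84%) was counted only in the edgeR fit of the main results. The counts under the alternatives therefore have no background beside them and are not read as a stronger or weaker result for these genes.

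Estimates of 4 of the 8 genes changed sign. With 1 library left out, MYB34 ranged between -0.50 and 1.22, MYB51 between -0.56 and 0.40, CYP79B3 between -0.011 and 1.07 and SOT16 between -0.049 and 0.38. MYB34 was at -0.50, -0.12 and -0.27 without transgenic replicate 1, WT replicate 1 and WT replicate 2. MYB51 was at 0.08 without transgenic replicate 2 and 0.40 without WT replicate 2. SOT16 was at -0.049 and -0.026 without transgenic replicate 1 and WT replicate 1, and CYP79B3 at -0.011 without transgenic replicate 1. Within the morning side of the clock score MYB34 was at -0.54, MYB51 at 1.09 and SOT16 at -0.24. The ratio of the highest to the lowest level per kb, 205.9, was 228.1 with coding length, where MYB34 and CYP79B2 traded places. The cause of these changes was not tested. The within-side values, the older quasi-likelihood method and the alternatives for the 45 genes were added after the data were seen.

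The 95% intervals of the 8 genes ran from the widest, -1.36 to 1.63 for MYB34, to the narrowest, -0.39 to 0.67 for SOT16, and MYB51 and CYP81F2 rest on 7 to 52 counts per library, which are fewer fragments if mates were counted separately.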

Other observations

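The aliphatic glucosinolates, made from methionine by a parallel set of enzymes, were compared in the same libraries. Of 25 listed genes, 15 were tested, and all 15 had estimates above 0, with a median log2 fold change of 0.48, against -0.01 over all genes tested, of which 47.9% had estimates above 0. FMOGS-OX3 had 16, 54 and 25 counts in transgenic replicates 1, 2 and 3, against 6, 8 and 6 in WT replicates 1, 2 and 3. It passed the count filter only through its transgenic libraries, so its direction was set by the filter. The unadjusted p was under 0.05 with higher levels for 5 of the 15 genes, against 2.57% of all genes, and 4 had every transgenic library above every WT library, against 5.57%. FMOGS-OX3 is among both the 5 and the 4. None of the 15 was called by edgeR after adjustment. IPMI2, an isopropylmalate isomerase subunit of methionine chain elongation, had 5.93, 8.96 and 6.58 CPM in transgenic replicates 1, 2 and 3, against 2.45, 1.95 and 2.44 CPM in WT replicates 1, 2 and 3. CYP83A1, the aliphatic counterpart of CYP83B1, had 19.95, 30.7 and 24.3 CPM in transgenic replicates 1, 2 and 3, against 10.1, 11.3 and 13.5 CPM in WT replicates 1, 2 and 3. In both genes transgenic replicate 2 was the highest library, whereas CYP83B1, IGMT5, CYP79B2, CYP79B3 and SOT16 had in that replicate their lowest transgenic level. The regulators of the aliphatic genes were low, with MYB28 at 4.21 ± 1.84 CPM in transgenic and 3.01 ± 1.03 CPM in WT buds (SD, n = 3 each) and MYB76 without a count in any library.

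The tapetum markers, of the tissue in which the transgene is driven, had estimates below 0 for 9 of 9 tested genes, against 9714 of 18642 over all genes. AMS stood at 58.3, 38.5 and 51.1 CPM in transgenic replicates 1, 2 and 3, against 72.1, 92.6 and 88.0 CPM in WT replicates 1, 2 and 3. None of the 9 markers was called by edgeR after adjustment. Their mean centred log2 level was 0.41, -1.04 and -0.43 in transgenic replicates 1, 2 and 3 and -0.20, 0.28 and 0.98 in WT replicates 1, 2 and 3.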
